A study of Mus musculus with 24 samples.

Results

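The genes of sterol and fatty acid synthesis were followed across co-cultures of macrophages with lymphocytes. The group was taken by name: 34 genes of the pathway, matched by Ensembl identifier to the rows of the count table, out of 55487 genes listed. It held 19 enzymes of sterol synthesis, called the sterol branch here, 6 regulators and carriers, and 9 genes of fatty acid and glycerolipid synthesis, called the fatty acid branch. All 34 passed the filter on low counts, which left 14099 genes to test.

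Bone-marrow-derived macrophages (BMDMs) of WT or Tmem175-/- mice were cultured with spleen lymphocytes from mice that carried B16-F10-OVA tumours, a melanoma line expressing ovalbumin. Each genotype was sampled in 4 conditions, with 3 libraries in each: without antigen (WT_none, KO_none), with antigen of B16-F10-OVA tumour cells (WT_Ag, KO_Ag), and with that antigen together with IL-1β (WT_Ag_IL1b, KO_Ag_IL1b) or IL-18 (WT_Ag_IL18, KO_Ag_IL18), each cytokine at 500 pg/ml. Poly(A) RNA of the whole co-culture was sequenced, so a level mixes all cell types, and fewer cells of a type cannot be told apart from less RNA per cell. Neither the genotype and age of the lymphocyte donors nor the culture time was given in the sources used here, and lymphocytes were present in every group. The sample titles name Tmem175-/- for all 12 knockout libraries, whereas the genotype field of 11 of them names other, consecutively numbered genes. The labels do not say whether the 3 libraries of a group came from separate animals, so a p-value reflects only how far these samples spread.

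Cholesterol is made from acetyl-CoA through mevalonate, isoprenoids, squalene and lanosterol, and fatty acids are made from the same precursor through malonyl-CoA. Both branches are driven by the sterol regulatory element binding proteins (SREBPs): SREBP2, from Srebf2, acts mainly on sterol genes, and SREBP1, from Srebf1, mainly on fatty acid genes. SCAP carries the precursors from the endoplasmic reticulum to the Golgi for cleavage when sterols are low, and INSIG proteins hold them back when sterols are high. Liver X receptors, which sense oxysterols, raise Srebf1 and cholesterol export genes. TMEM175 is a cation channel of lysosomes, the organelle where cholesterol taken up with lipoproteins is released.

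The libraries held 17744540 to 24898552 counts. Levels are CPM, counts scaled by library size with TMM factors, as mean ± SD of 3 libraries. Differences are log2 fold changes ± SE from edgeR's quasi-likelihood test, and a gene was called when its Benjamini-Hochberg adjusted p over all tested genes was under 0.05. Tmem175 was lower in the knockout libraries, at 14.6 ± 0.463 against 25.3 ± 0.871 CPM without antigen, with log2 fold changes from -0.91 to -0.79 in the 4 conditions. The RNA was thus reduced and not absent. Whether the counted part lies outside the deletion is not known. Of the macrophage markers Adgre1 stood at 1654 CPM in WT_none, whereas of the T cell markers Cd3e stood at 0.945 CPM and Trac at 1.48 CPM. Not all T cell markers were low there: the 8 listed summed to 139 to 160 CPM, most of it Cd28.

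Compared per kb of the longest annotated transcript, the members spanned a wide range in WT_none. Scd2, a stearoyl-CoA desaturase, stood highest at 62.1 ± 4.25 CPM per kb. Hmgcs1, the cytosolic HMG-CoA synthase at the head of the mevalonate pathway, followed at 61.2 ± 3.17, within the spread of Scd2. Msmo1, a C-4 sterol methyl oxidase, stood at 54.6 ± 2.42, Acly, which makes cytosolic acetyl-CoA from citrate, at 46.2 ± 0.675, and Insig1 at 44.0 ± 1.16 CPM per kb. Fads1 stood at 39.1 ± 0.558 and Cyp51, the lanosterol demethylase, at 30.9 ± 1.00 CPM per kb. The lowest member was Fdps, the farnesyl diphosphate synthase, at 0.857 ± 0.0908 CPM per kb. The counting method was not given in the sources used here, so reads shared with close copies may have been split or dropped. This applies to Scd1 and Scd2 (desaturases of one cluster), Idi1, Acat2 and possibly Fdps.

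Promoter sequences from RefSeq (build GRCm38.p6) were found for 27 of the 34 members. There was no entry for Fdps, Fdft1, Sqle, Stard4, Scd1, Scd2 and Fads1. Each window runs from 250 bases before to 50 bases after a transcript start. On both strands it was searched for TCACNCCAC, a form of the sterol regulatory element to which SREBPs bind, for CCAAT, the core bound by NF-Y, a partner of SREBPs, and for CACGTG, an E-box. TCACNCCAC was found in the window of 1 member, Hmgcs1, beside 1.44% of all 27025 genes in the table and 1.31% of the 10220 tested genes with a window. CCAAT was found in 15 of 16 sterol enzymes, 4 of 5 regulators and 2 of 6 fatty acid genes, beside 41.1% of all genes and 42.7% of tested genes. The fatty acid genes that held it were Fasn and Acly. CACGTG was found in 5 of 27 members (Hsd17b7, Sc5d, Dhcr7, Insig1 and Scap), beside 8.09% of all genes and 11.6% of tested genes. A match describes the letters in the window and shows no binding. The Hmgcs1 stretch below is shown because it alone held the first motif. One further gene of the sterol branch, one regulator and one fatty acid gene are shown for comparison, and these were chosen after their values and matches were seen. Each stretch is written 5′ to 3′ along the gene, begins 170 bases before the RefSeq start and ends before the first start that RefSeq or GENCODE vM21 annotates. Capitals mark the matches.
Hmgcs1, chr13:119690181-119690350, plus strand: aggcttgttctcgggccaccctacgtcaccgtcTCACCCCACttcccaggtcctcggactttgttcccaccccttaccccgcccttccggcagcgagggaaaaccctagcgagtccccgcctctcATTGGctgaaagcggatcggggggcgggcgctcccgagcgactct
Hsd17b7, chr1:169969242-169969375, minus strand: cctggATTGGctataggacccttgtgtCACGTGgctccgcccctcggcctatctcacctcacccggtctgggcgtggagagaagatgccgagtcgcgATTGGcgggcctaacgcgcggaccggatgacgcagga
Insig1, chr5:28071242-28071362, plus strand: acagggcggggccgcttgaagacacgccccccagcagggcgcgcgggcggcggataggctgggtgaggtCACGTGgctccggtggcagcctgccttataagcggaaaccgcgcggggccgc
Fasn, chr11:120824548-120824717, minus strand: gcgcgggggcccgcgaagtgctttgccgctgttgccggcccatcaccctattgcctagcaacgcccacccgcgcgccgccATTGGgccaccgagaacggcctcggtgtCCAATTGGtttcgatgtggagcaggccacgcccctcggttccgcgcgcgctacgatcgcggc
In Hmgcs1 the first capitals are the TCACNCCAC match, 137 bases before the start, and the second a CCAAT match on the opposite strand. Hsd17b7 holds CACGTG between a pair of CCAAT matches on the opposite strand. Insig1 holds CACGTG 101 bases before the start, and its CCAAT match lies outside the stretch. Fasn holds a CCAAT match on each strand in the second run of capitals, where they overlap, and one more on the opposite strand before it.

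The first comparison asked how the pathway differed between co-cultures with and without tumour antigen. With antigen, 29 of 34 members were lower in WT co-cultures and 29 in knockout co-cultures. Over all tested genes, 34.5% were lower and 33.5% higher in WT, and 34.6% lower and 33.8% higher in the knockout. In the sterol branch 17 of 19 enzymes fell and 1 rose in each genotype, and the median log2 fold change was -0.997 (WT) and -1.04 (knockout). In the fatty acid branch 8 of 9 genes fell in each genotype and 1 rose in WT, with a median of -0.59 in WT and -0.79 in the knockout. Of the regulators 4 of 6 fell and 1 rose in each genotype, with medians of -0.38 and -0.46. The median over all tested genes was -0.0032 in WT and 0.0057 in the knockout. A fall past 1 on the log2 scale was seen in 9 sterol enzymes in WT and 11 in the knockout, and in 4 fatty acid genes in each.

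**Figure D1:**
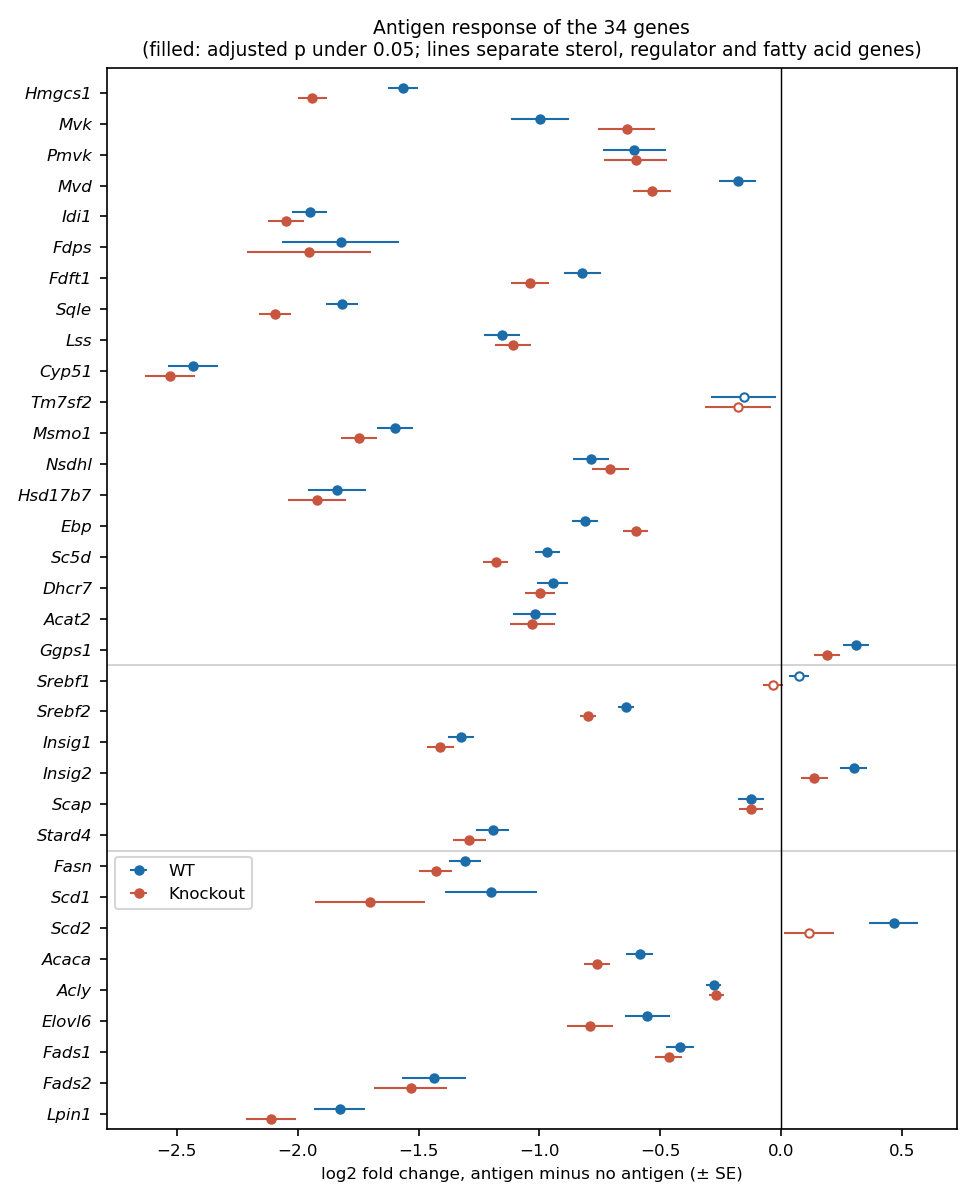
Log2 fold change with antigen (horizontal axis, ± SE) of the 34 genes in WT (blue) and knockout (red) co-cultures, 3 against 3 libraries each; filled points have an adjusted p under 0.05. Most points lie left of 0, from -2.53 for Cyp51 in the knockout to 0.46 for Scd2 in WT.

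The early mevalonate steps fell by unequal amounts. Hmgcs1 stood at 202, 223 and 211 CPM in the 3 WT_none libraries and at 68.9, 73.7 and 72.1 CPM in WT_Ag. In the knockout it stood at 225, 232 and 224 CPM without antigen and at 55.4, 65.7 and 56.5 CPM with it. In both genotypes every library without antigen was above every library with it. The log2 fold change was -1.56 ± 0.0608 in WT (adjusted p = 2.48e-17) and -1.94 ± 0.0616 in the knockout (adjusted p = 3.73e-19). Mvk, the mevalonate kinase, fell by 1.00 and 0.64 on the log2 scale in WT and knockout, and Pmvk, the next kinase, by 0.61 and 0.60. Mvd, which decarboxylates mevalonate diphosphate, stood at 20.6, 21.0 and 24.1 CPM in WT_none and at 18.5, 19.3 and 20.1 CPM in WT_Ag. These groups lay just beside each other without overlap (log2 fold change -0.18 ± 0.0772, adjusted p = 0.0417). That call was lost when WT_none replicate 3 (adjusted p = 0.308), WT_Ag replicate 1 (0.124), replicate 2 (0.0803) or replicate 3 (0.0510) was left out, with DESeq2 size factors (0.0571), without the filter on low counts (0.0570) and with DESeq2 (0.115). In the knockout Mvd went from 23.3, 20.9 and 23.6 to 13.3, 17.1 and 16.7 CPM (-0.53 ± 0.0783, adjusted p = 7.19e-07).

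The isoprenoid steps that follow held some of the largest falls of the sterol branch. Idi1, the isopentenyl diphosphate isomerase, stood at 39.2, 44.8 and 43.0 CPM in WT_none and at 10.5, 11.2 and 11.1 CPM in WT_Ag. In the knockout it went from 39.2, 40.2 and 38.8 to 7.91, 10.9 and 9.92 CPM. The log2 fold changes were -1.95 ± 0.0735 (adjusted p = 2.57e-19) and -2.05 ± 0.0746 (adjusted p = 1.07e-19). Fdps fell by 1.82 and 1.95, from 2.53 ± 0.268 to 0.705 CPM in WT and from 2.13 ± 0.263 to 0.544 CPM in the knockout, on a mean of 51.7 counts a library in WT_none. Ggps1, the geranylgeranyl diphosphate synthase that leads away from sterols toward protein prenylation, was the only sterol branch gene that rose. It went from 27.8, 24.8 and 24.7 to 31.2, 31.8 and 32.6 CPM in WT (log2 fold change 0.31 ± 0.0546, adjusted p = 1.29e-05) and from 26.7, 28.0 and 26.1 to 31.1, 31.3 and 29.6 CPM in the knockout (0.19 ± 0.0541, adjusted p = 0.00312).

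The steps from squalene to cholesterol fell with 1 exception. Fdft1, the squalene synthase, fell by 0.82 in WT and 1.04 in the knockout. Sqle, the squalene epoxidase and a rate-limiting step, stood at 66.2, 76.4 and 69.4 CPM in WT_none and at 19.1, 20.02 and 20.9 CPM in WT_Ag. In the knockout Sqle went from 75.2, 77.8 and 75.7 to 15.8, 20.2 and 17.7 CPM. Its log2 fold changes were -1.82 ± 0.0668 (adjusted p = 1.50e-19) and -2.09 ± 0.0669 (adjusted p = 5.38e-21). Lss, which closes the ring to lanosterol, fell by 1.15 and 1.11.

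Cyp51 had the largest fall of all 34 members in both genotypes. It stood at 117, 125 and 122 CPM in WT_none and at 22.2, 22.9 and 22.2 CPM in WT_Ag, and at 119, 130 and 114 CPM (KO_none) and 17.2, 22.7 and 23.2 CPM (KO_Ag). All libraries with antigen were below those without it. The fold was 5.41 in WT (log2 fold change -2.43 ± 0.103, adjusted p = 4.69e-14) and 5.76 in the knockout (-2.53 ± 0.103, adjusted p = 2.49e-14). Msmo1 fell by 1.60 and 1.75, from 162 ± 7.18 CPM in WT_none to 53.5 CPM in WT_Ag and from 174 ± 7.93 to 51.9 CPM in the knockout. Hsd17b7, a 3-ketosteroid reductase of the same C-4 demethylation complex, fell by 1.84 and 1.92, and Nsdhl, the third member of that complex, by 0.79 and 0.71. Ebp, Sc5d and Dhcr7, which rearrange and reduce the ring double bonds, fell by 0.81, 0.97 and 0.94 in WT and by 0.60, 1.18 and 1.00 in the knockout. Acat2, a cytosolic acetoacetyl-CoA thiolase, fell by 1.02 and 1.03. The exception was Tm7sf2, a sterol C-14 reductase, which stood at 5.68, 5.70 and 5.95 CPM in WT_none and 4.74, 5.74 and 4.98 CPM in WT_Ag. Its groups overlapped in both genotypes (log2 fold changes -0.15 ± 0.135, adjusted p = 0.319, and -0.18 ± 0.137, adjusted p = 0.254).

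Among the regulators the 2 SREBP genes moved differently. Srebf2 stood at 141, 146 and 142 CPM in WT_none and at 92.5, 90.5 and 91.9 CPM in WT_Ag. In the knockout it went from 147, 148 and 148 to 81.1, 87.0 and 86.4 CPM. The fall was 0.64 ± 0.0327 in WT (adjusted p = 2.68e-16) and 0.80 ± 0.0327 in the knockout (adjusted p = 1.64e-18), with no overlap between groups. Srebf1 stood at 38.6, 40.1 and 38.5 CPM in WT_none and 42.7, 41.0 and 39.7 CPM in WT_Ag, and at 40.0, 38.4 and 39.2 CPM in KO_none and 39.2, 37.5 and 38.1 CPM in KO_Ag. These ranges overlapped, and neither difference was called (0.07 ± 0.0417, adjusted p = 0.121, and -0.03 ± 0.0416, adjusted p = 0.487). Without WT_Ag replicate 3 the WT difference of Srebf1 passed the threshold. The counts do not separate the transcripts of Srebf1 that start at different promoters.

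Insig1, itself a target of SREBPs, stood at 115, 120 and 121 CPM in WT_none and 45.5, 49.3 and 47.2 CPM in WT_Ag, and went from 110, 120 and 112 to 40.9, 45.8 and 42.2 CPM in the knockout. All libraries with antigen were below those without it (-1.32 ± 0.0542, adjusted p = 1.75e-18, and -1.41 ± 0.0545, adjusted p = 4.15e-19). Stard4, a carrier of cholesterol between membranes, fell by 1.19 and 1.29, from 84.6 ± 3.26 to 37.0 CPM in WT and from 79.1 ± 7.07 to 32.4 CPM in the knockout. Insig2 rose from 29.2, 29.7 and 28.3 to 36.9, 35.3 and 35.3 CPM in WT (0.30 ± 0.0573, adjusted p = 3.80e-05). In the knockout its groups overlapped, at 34.9, 29.9 and 31.0 CPM without and 36.0, 34.1 and 35.3 CPM with antigen, and its rise of 0.14 ± 0.0564 (adjusted p = 0.0318) was lost without KO_none replicate 2 (adjusted p = 0.0997) or 3 (0.0834), or without KO_Ag replicate 1 (0.0502) or 3 (0.0735). It was also lost with DESeq2 (0.0619) and in a fit of the compared libraries alone (0.0650). Scap fell by 0.12 in each genotype (adjusted p = 0.0396 in WT and 0.0333 in the knockout). That call was lost in WT without WT_none replicate 1 (adjusted p = 0.0743) or 3 (0.272) or WT_Ag replicate 1 (0.0999) or 3 (0.114), and in the knockout without KO_none replicate 2 (0.313) or 3 (0.0856) or any KO_Ag library (0.0530 to 0.212). It was also lost without the filter (0.187 in WT and 0.134 in the knockout), with DESeq2 (0.166 and 0.116), with the compared libraries alone (0.0952 and 0.0886) and, in WT, with DESeq2 size factors (0.0665).

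The fatty acid branch fell less evenly, and its most abundant gene rose in WT. Fasn, the fatty acid synthase, stood at 82.4, 78.9 and 81.4 CPM in WT_none and at 36.6, 29.7 and 32.1 CPM in WT_Ag. In the knockout it went from 65.9, 69.1 and 63.8 to 22.4, 25.2 and 26.2 CPM. Both falls exceeded the spread (-1.31 ± 0.0654, adjusted p = 2.98e-16, and -1.43 ± 0.0678, adjusted p = 8.58e-17). The upstream enzymes fell less: Acaca, the acetyl-CoA carboxylase that makes malonyl-CoA, by 0.59 and 0.76, and Acly by 0.28 and 0.27. Acly stayed within 162 to 177 CPM in all libraries with antigen, against 199.8 to 207 CPM without it.

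Among the desaturases Scd1 stood at 15.99, 21.5 and 19.3 CPM in WT_none and 6.44, 9.13 and 8.93 CPM in WT_Ag. In the knockout it went from 8.55, 11.9 and 13.2 to 2.93, 4.97 and 2.60 CPM. Its log2 fold change was -1.202 ± 0.190 in WT (adjusted p = 1.46e-05) and -1.70 ± 0.229 in the knockout (adjusted p = 1.86e-06). Scd2, the other desaturase, stood at 314, 360 and 343 CPM in WT_none and at 449, 495 and 460 CPM in WT_Ag, without overlap (0.46 ± 0.103, adjusted p = 0.000634). In the knockout Scd2 stood at 290, 321 and 290 CPM without and 276, 378 and 323 CPM with antigen, which overlapped (0.11 ± 0.103, adjusted p = 0.336). Without KO_Ag replicate 1 the knockout rise passed the threshold. The difference between the Scd2 responses did not pass the test (-0.35, adjusted p = 0.167). It passed without KO_Ag replicate 2 and with the replicate number as a block.

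Fads2 and Fads1, the desaturases of polyunsaturated fatty acids, fell by 1.44 and 0.42 in WT and by 1.53 and 0.47 in the knockout. Fads2 stood at 24.97, 29.7 and 28.0 CPM in WT_none and 8.41, 11.7 and 10.1 CPM in WT_Ag. Elovl6, which elongates C16 fatty acids, fell by 0.55 and 0.79. Lpin1, a phosphatidate phosphatase of glycerolipid synthesis and a transcriptional coregulator, stood at 57.4, 56.4 and 58.0 CPM in WT_none and 16.5, 15.9 and 16.1 CPM in WT_Ag, and at 70.8, 57.4 and 71.0 CPM in KO_none and 14.4, 17.3 and 14.6 CPM in KO_Ag. Its falls were the largest of the branch, at 1.83 ± 0.105 (adjusted p = 1.37e-12) and 2.11 ± 0.104 (adjusted p = 8.58e-14).

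**Figure D2:**
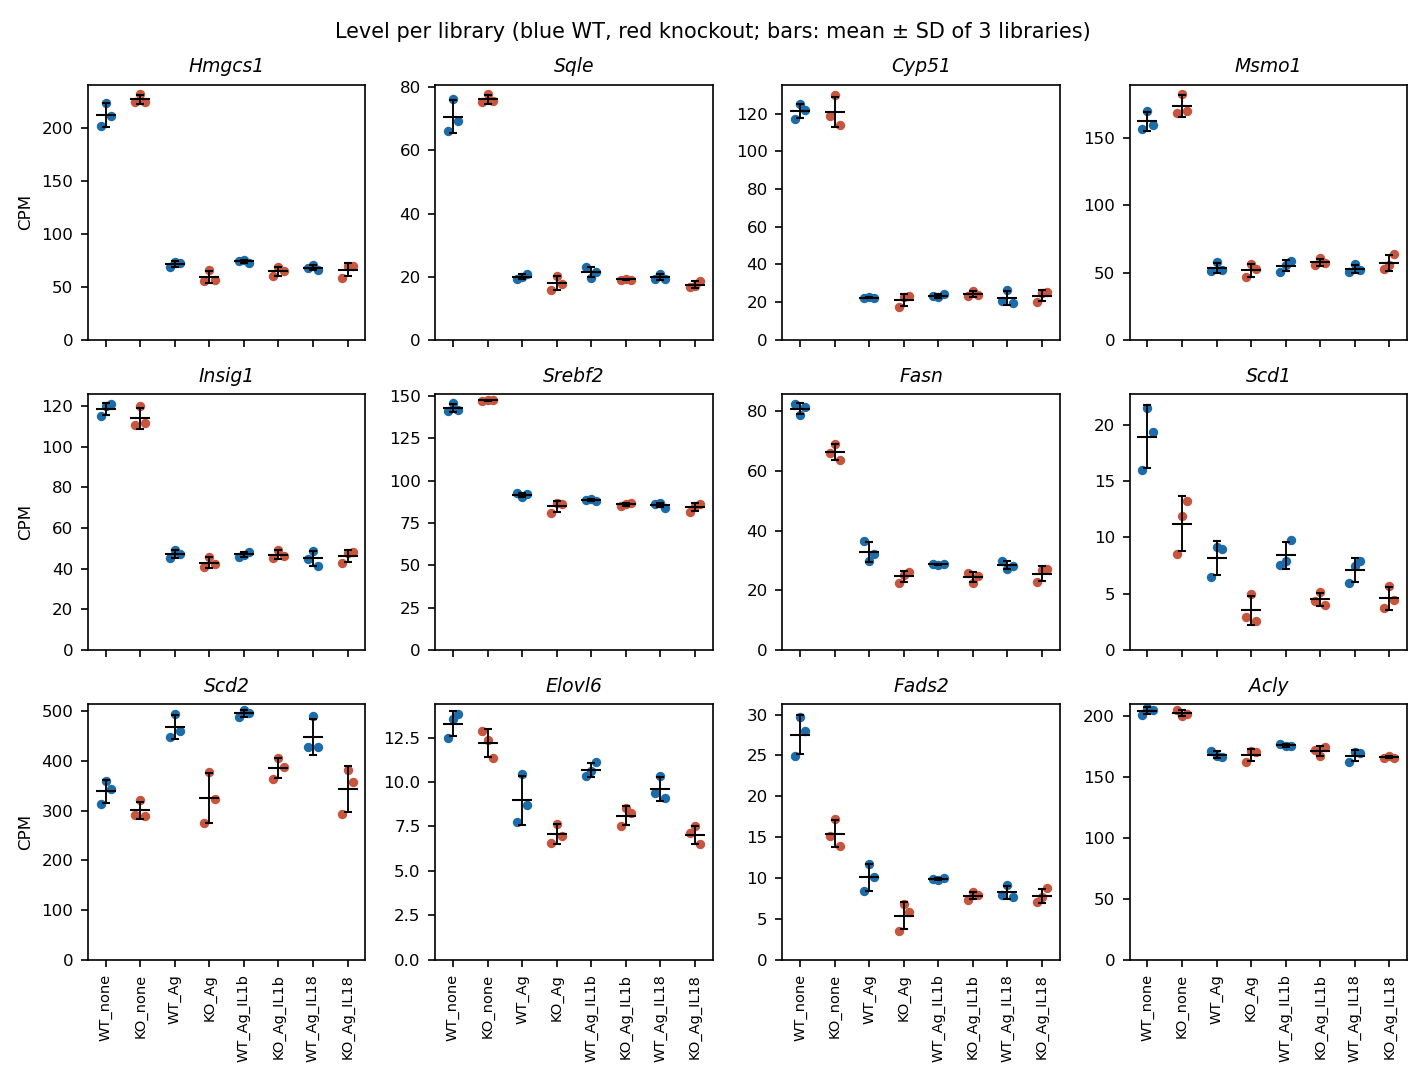
CPM (vertical axis, from 0) of 12 members in each of the 24 libraries, by group; points are libraries, blue WT and red knockout, and bars are mean ± SD of 3. The step between libraries without and with antigen is present in both genotypes in each panel but that of Scd2. There it is upward in WT, and the knockout libraries without antigen and with antigen alone overlap. The red points of Fasn, Scd1 and Fads2 lie below the blue ones without antigen and with antigen alone.

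Markers of other cells and of cell division moved in the same comparison. Over all tested genes 33.5% rose and 34.5% fell in WT, and 33.8% rose and 34.6% fell in the knockout. All 8 cell division markers fell in WT and 6 of 8 in the knockout, with a summed level of 734 to 745 CPM in WT_none, 299 to 325 in WT_Ag, 582 to 618 in KO_none and 391 to 431 in KO_Ag. Of 8 macrophage markers 4 rose and 3 fell in each genotype, and their summed level was 17928 to 18439 CPM in WT_none, 23812 to 24809 in WT_Ag, 12637 to 13089 in KO_none and 14796 to 17237 in KO_Ag. Of 8 T cell markers 1 rose and 1, Cd28, fell in WT (from 135 to 8.21 CPM), and 5 rose and 1 fell in the knockout. The summed T cell level of 139 to 160 CPM in WT_none, 21.3 to 23.5 in WT_Ag, 110 to 119 in KO_none and 21.3 to 25.2 in KO_Ag was mostly Cd28 in the groups without antigen, and Cd28 was the smaller part of it with antigen (8.21 CPM in WT_Ag and 6.51 in KO_Ag). The summed level of 8 neutrophil markers was 1208 to 1353 CPM in WT_none, 378 to 463 in WT_Ag, 1255 to 1345 in KO_none and 421 to 471 in KO_Ag. No marker of these 4 lists was at 0. Of 7 fibroblast markers 5 rose in WT and 3 in the knockout, and their summed level was 27.8 to 97.6 CPM in WT_none, 121 to 183 in WT_Ag, 12.5 to 28.4 in KO_none and 40.4 to 48.6 in KO_Ag. Of 6 natural killer cell markers 4 fell in WT (summed level 11.5 to 12.8 CPM without and 5.03 to 7.79 with antigen), and 2 rose and 1 fell in the knockout (6.55 to 8.22 and 8.42 to 10.1 CPM). Of 6 tested B cell markers 3 rose in WT and 4 in the knockout, at summed levels of at most 19.1 CPM in these 4 groups, and of 6 tested plasma cell markers 1 rose in WT and 2 rose and 2 fell in the knockout. One adipocyte marker was tested, Fabp4, a fatty acid binding protein that macrophages also make. It fell by 1.97 in WT (198 to 50.2 CPM) and 2.24 in the knockout (315 to 66.8 CPM). One melanoma marker was tested, Mitf, and it fell by 1.08 and 1.46. The part of these cells and of cell division in the falls of the synthesis genes was not tested.

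Other genes of the pathway, listed with results of these data already known, moved in both directions with antigen. Over all tested genes 33.5% rose and 34.5% fell in WT, and 33.8% rose and 34.6% fell in the knockout. A count near these shares does not set a list apart. Of 12 genes that process or turn over SREBPs and carry sterols, 3 rose and 5 fell in WT and 3 rose and 6 fell in the knockout. Mbtps1, the site-1 protease that cleaves SREBPs, fell by 0.59 in WT (73.1 to 48.6 CPM) and 0.49 in the knockout, and Erlin2 and Pgrmc1, which act on INSIG and SCAP, fell by 0.49 and 0.62 in WT. Npc1, the exporter of cholesterol from lysosomes, rose by 0.23 in WT. Of 12 genes that use isoprenoids 5 rose and 3 fell in WT and 5 rose and 2 fell in the knockout. Fnta, a prenyltransferase subunit, fell by 1.00 in WT and 0.95 in the knockout, and Rabggtb, a subunit that prenylates Rab proteins, rose by 0.64 and 0.51.

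Of 18 genes that supply, elongate and activate fatty acids, 8 were higher and 8 lower in WT and 8 higher and 9 lower in the knockout. The shares over all tested genes were 33.5% higher and 34.5% lower in WT, and 33.8% and 34.6% in the knockout. Acsl1, an acyl-CoA synthetase, went from 58.9 to 412 CPM in WT (log2 fold change 2.81 ± 0.0539) and from 50.03 to 297 CPM in the knockout (2.57 ± 0.0541). Me1, the malic enzyme that supplies NADPH, rose by 2.87 in WT from 2.20 to 16.3 CPM and by 3.28 in the knockout. Elovl5, an elongase of polyunsaturated fatty acids, fell by 0.68 and 0.83. Of 11 tested genes of glycerolipid synthesis other than Lpin1, 9 rose and 1 fell in each genotype. Gpat3, a glycerol-3-phosphate acyltransferase, rose from 0.391 to 4.67 CPM in WT (3.55 ± 0.277), and Lpin2, from the same family as Lpin1, rose from 120 to 189 CPM (0.66 ± 0.0472). Of 12 tested oxysterol enzymes and liver X receptor targets 5 rose and 5 fell in each genotype: in WT Smpdl3a rose by 1.36, Abcg1, a cholesterol exporter, fell by 0.94, Nceh1, a cholesteryl ester hydrolase, fell by 0.71 and Cyp27a1, the sterol 27-hydroxylase, fell by 1.60.

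The second comparison asked how knockout and WT macrophage co-cultures differed within a condition. Without antigen the sterol branch held 1 called enzyme of 19, Sc5d, which was higher in the knockout, and a median log2 fold change of -0.012. The fatty acid branch held 3 called genes of 9, all lower in the knockout (Fasn, Scd1 and Fads2), and a median of -0.13, which ranged from -0.17 to -0.074 when any 1 library was left out. None of the 6 regulators was called. Scap passed the threshold under 4 of 11 alternatives, Acat2 and Lpin1 under 2 each, and Stard4 and Scd2 under 1 each. By mean CPM Scap and Lpin1 were higher in the knockout, and Acat2, Stard4 and Scd2 were lower. Over all tested genes 9.62% were higher and 7.25% lower, so the share of sterol enzymes called was below that of all genes, and no test sets the branches against each other. Unadjusted p-values were under 0.05 for 9 of 34 members and for 3923 of all 14099 tested genes, and DESeq2 called 4 members and 2195 of all genes. The SE of the members ranged from 0.0312 to 0.199, with a median of 0.0660, and differences within that error could not be seen.

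Fads2 had the largest genotype difference without antigen, with 24.97, 29.7 and 28.0 CPM in WT_none and 15.1, 17.3 and 13.9 CPM in KO_none, without overlap (-0.84 ± 0.124, adjusted p = 3.56e-05). Scd1, at 15.99, 21.5 and 19.3 against 8.55, 11.9 and 13.2 CPM, was lower by 0.75 ± 0.183 (adjusted p = 0.00680). Fasn, at 82.4, 78.9 and 81.4 against 65.9, 69.1 and 63.8 CPM, was lower by 0.29 ± 0.0611 (adjusted p = 0.00111). Every knockout library was below every WT library for these 3 genes. Sc5d, at 71.9, 81.1 and 83.7 against 87.2, 90.3 and 89.5 CPM, was higher by 0.17 ± 0.0491 (adjusted p = 0.0134), and this call was lost without WT_none replicate 1 (0.11, adjusted p = 0.147) and with the compared libraries alone (0.0723). Hmgcs1, Sqle and Cyp51 had log2 fold changes of 0.10 ± 0.0573, 0.11 ± 0.0584 and -0.0073 ± 0.0884, and none was called.

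With antigen, the fatty acid branch held 5 genes of 9 that were lower in the knockout and none that was higher (median -0.36). The sterol branch held 2 lower and 1 higher of 19 (median -0.10), and 1 of the 6 regulators, Srebf2, was lower. Over all tested genes 7.62% were lower and 7.7% higher. Scd1 stood at 6.44, 9.13 and 8.93 CPM in WT_Ag and at 2.93, 4.97 and 2.60 CPM in KO_Ag, a 2.38-fold difference without overlap (-1.25 ± 0.239, adjusted p = 0.00109). Fads2, at 8.41, 11.7 and 10.1 against 3.53, 6.81 and 5.78 CPM, was lower by 0.94 ± 0.160 (adjusted p = 0.000228). Scd2, at 449, 495 and 460 against 276, 378 and 323 CPM, was lower by 0.52 ± 0.103 (adjusted p = 0.00172), which was not called with the compared libraries alone (-0.53, adjusted p = 0.0519). Fasn was lower by 0.41 ± 0.0722 (adjusted p = 0.000159). Elovl6, at 7.74, 10.5 and 8.73 against 6.55, 7.65 and 6.97 CPM, was lower by 0.36 ± 0.100 (adjusted p = 0.0119), which was lost without WT_Ag replicate 2 (-0.23, adjusted p = 0.167) or KO_Ag replicate 1 (-0.30, adjusted p = 0.0818) and with the compared libraries alone (0.0603). Acly and Fads1 stood level between the genotypes, with log2 fold changes of -0.0036 ± 0.0314 and 0.00099 ± 0.0574.

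In the sterol branch with antigen Hmgcs1 was lower in the knockout by 0.28 ± 0.0634 (adjusted p = 0.00320), with 3 of 3 knockout libraries below all WT libraries. Mvd was lower by 0.31 ± 0.0797 (adjusted p = 0.00813). Without WT_Ag replicate 3 (adjusted p = 0.0502) or KO_Ag replicate 1 (-0.19, adjusted p = 0.117) Mvd was not called. Srebf2 was lower by 0.11 ± 0.0333 (adjusted p = 0.0212), lost without WT_Ag replicate 1 (adjusted p = 0.0704) or 3 (0.0708) or KO_Ag replicate 1 (0.209), without the filter (0.158) and with the compared libraries alone (0.0871). Ebp was higher by 0.17 ± 0.0549 (adjusted p = 0.0348), lost without any WT_Ag library (0.0696 to 0.0906) or KO_Ag replicate 2 (0.162), with DESeq2 (0.0907) and with the compared libraries alone (0.0784). Single libraries bear on this condition. KO_Ag replicate 1 had the lowest mean of both branches in the series. Without it the sterol branch held 1 lower and 1 higher gene with a median of 0.014, and the fatty acid branch 4 lower genes with a median of -0.30. Without KO_Ag replicate 2, in contrast, Idi1 (adjusted p = 0.0293), Sqle (0.0267), Fdft1 and Stard4 were called as well. With any 1 library left out, the members called ranged from 6 to 12 and the sterol median from -0.18 to 0.014.

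**Figure D3:**
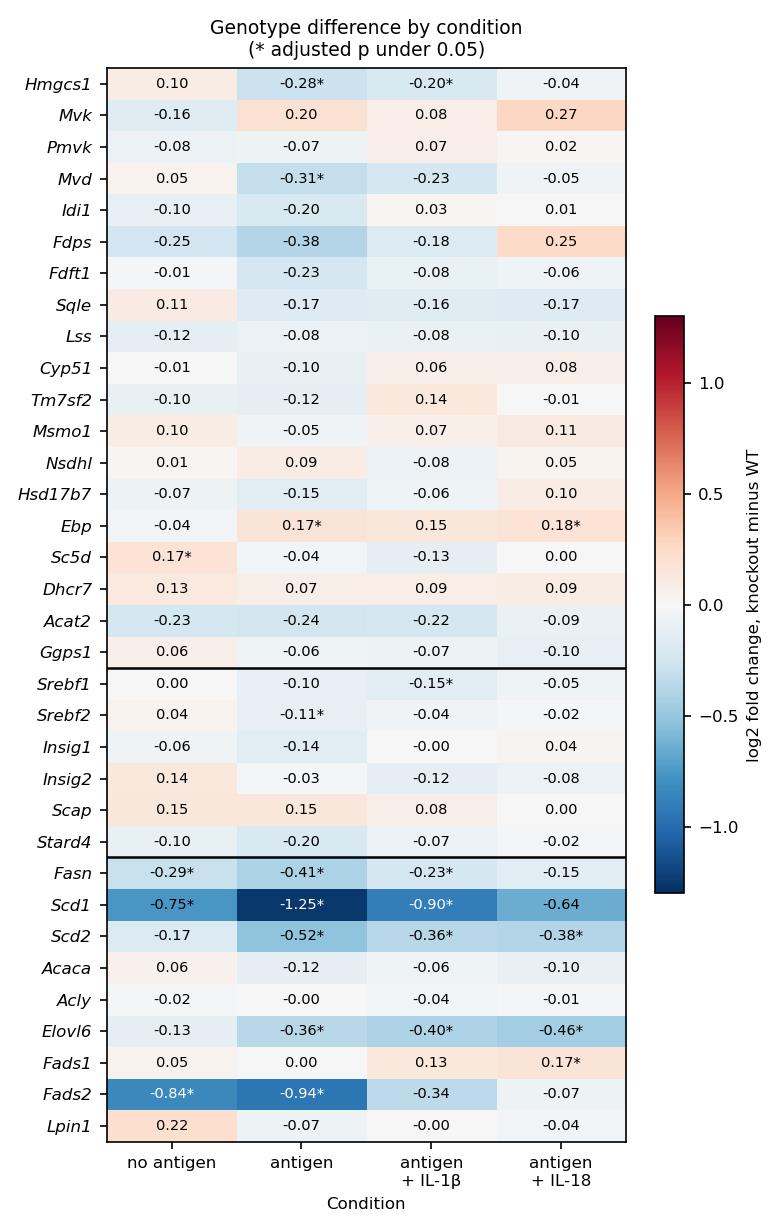
Log2 fold change of knockout against WT for the 34 genes (rows) in the 4 conditions (columns), as colour and as a printed value; an asterisk marks an adjusted p under 0.05, and black lines separate sterol enzymes, regulators and fatty acid genes. The strongest blue lies in Scd1 and Fads2, down to -1.25 for Scd1 with antigen.

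With antigen and IL-1β the fatty acid branch held 4 genes lower in the knockout (Fasn, Scd1, Scd2 and Elovl6, median -0.23), the sterol branch 1 (Hmgcs1, median -0.066) and the regulators 1 (Srebf1). None was higher. Over all tested genes 6.55% were lower and 7.22% higher. Elovl6 stood at 10.3, 10.6 and 11.1 against 7.53, 8.56 and 8.24 CPM (-0.40 ± 0.0962, adjusted p = 0.00452) and kept its call without any 1 library. Scd1, at 7.52, 7.90 and 9.75 against 4.32, 5.10 and 4.02 CPM (-0.90 ± 0.229, adjusted p = 0.0113), lost it without WT_Ag_IL1b replicate 3 (0.0563) or KO_Ag_IL1b replicate 3 (0.0516). Srebf1 (-0.15 ± 0.0418, adjusted p = 0.0135) lost it without WT_Ag_IL1b replicate 1 (0.0549) or KO_Ag_IL1b replicate 2 (0.105), without the filter (0.0631) and with DESeq2 (0.0532). Hmgcs1 (-0.20 ± 0.0630, adjusted p = 0.0387), Fasn (-0.23 ± 0.0735, adjusted p = 0.0350) and Scd2 (-0.36 ± 0.102, adjusted p = 0.0251) each lost it without any 1 of 5 of the 6 libraries, with adjusted p up to 0.198, 0.188 and 0.102. The library whose removal kept the call was KO_Ag_IL1b replicate 2 for Hmgcs1 and Scd2 and KO_Ag_IL1b replicate 1 for Fasn.

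With antigen and IL-18 Scd2 and Elovl6 were lower in the knockout and Fads1 was higher (branch median -0.10, from -0.19 to -0.028 without any 1 library), and of the sterol branch Ebp was higher (median 0.0069). No regulator was called. Over all tested genes 10.3% were lower and 9.89% higher. Elovl6, at 9.37, 10.4 and 9.10 against 7.10, 7.51 and 6.51 CPM, was lower by 0.46 ± 0.0995 (adjusted p = 0.00148). Scd2, at 428, 490 and 427 against 293, 382 and 357 CPM, was lower by 0.38 ± 0.103 (adjusted p = 0.0137), lost without WT_Ag_IL18 replicate 2 (0.0609) or KO_Ag_IL18 replicate 1 (0.0758) and with the compared libraries alone (0.0677). Ebp (0.18 ± 0.0541, adjusted p = 0.0178) lost its call without WT_Ag_IL18 replicate 1 (0.0849) or 3 (0.0832) or KO_Ag_IL18 replicate 1 (0.0659). Fads1 (0.17 ± 0.0573, adjusted p = 0.0395), whose groups overlapped, lost it without WT_Ag_IL18 replicate 1 (0.115) or 3 (0.202) or KO_Ag_IL18 replicate 2 (0.192) or 3 (0.0875) and with the compared libraries alone (0.0629). Scd1, at 5.93, 7.49 and 7.93 against 3.67, 5.69 and 4.43 CPM, differed by -0.64 (adjusted p = 0.0582), and Fads2 by -0.07. Scd1 was called under 4 of 11 alternatives: with DESeq2, with the compared libraries alone, with the replicate number as a block and without KO_Ag_IL18 replicate 2.

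The branch means give these values per library. The mean log2 CPM of the 19 sterol enzymes was 4.96 ± 0.0374 in WT_none and 4.94 ± 0.0560 in KO_none, whereas that of the 9 fatty acid genes was 6.01 ± 0.0539 and 5.81 ± 0.0201. With antigen the sterol mean was 3.85 ± 0.0885 in WT and 3.76 ± 0.150 in the knockout, and the fatty acid mean 5.22 ± 0.0744 and 4.81 ± 0.171. The sterol mean minus the fatty acid mean lay at -1.05 ± 0.0174 in WT_none and -0.87 ± 0.0495 in KO_none, and at -1.37 ± 0.0636 in WT_Ag and -1.06 ± 0.0836 in KO_Ag. With IL-1β it lay at -1.32 ± 0.0268 in WT and -1.12 ± 0.0255 in the knockout, and with IL-18 at -1.28 ± 0.0218 and -1.07 ± 0.0875. In none of the 4 conditions did the WT and knockout libraries overlap in this difference. It was computed on genes chosen with results known and was given no test. Nor did each gene of the fatty acid branch move with its mean. Of these 9 genes, 3 had a log2 fold change above 0 in the knockout without antigen, and 1 in each other condition.

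**Figure D4:**
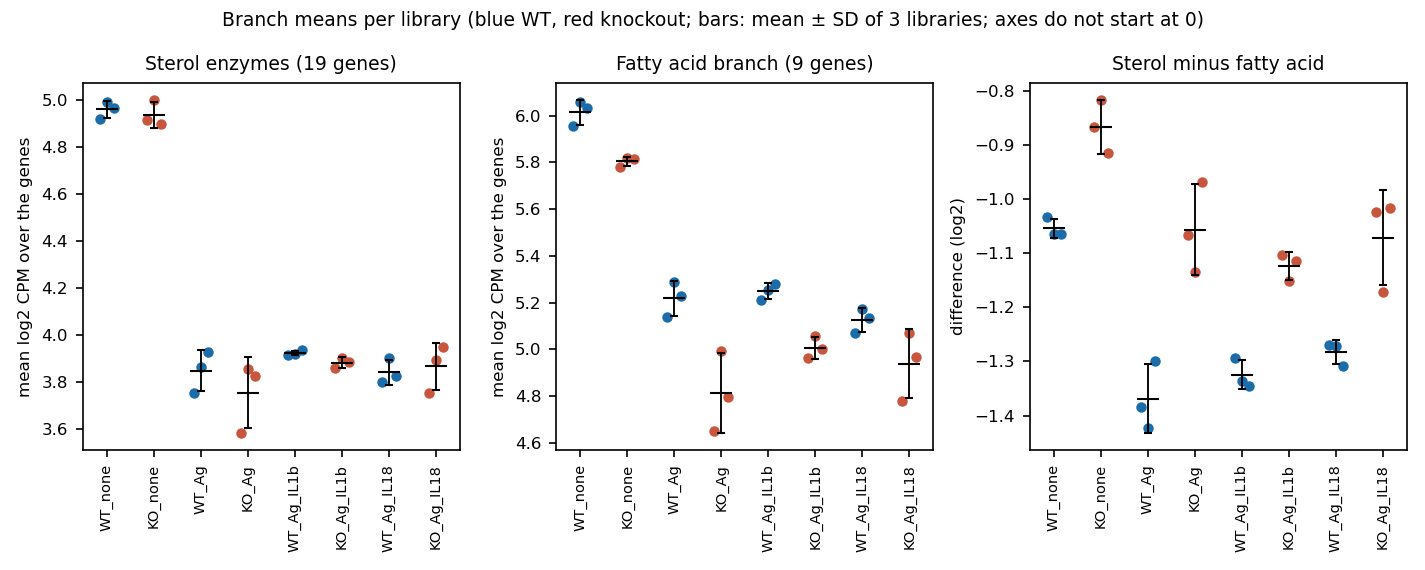
Mean log2 CPM of the sterol enzymes (left), of the fatty acid genes (middle) and their difference (right) in each library, by group; blue WT, red knockout, bars mean ± SD of 3, and the axes do not start at 0. The sterol means of the genotypes overlap in each condition but that with IL-1β, whereas the difference is higher in all knockout libraries than in the WT libraries of the same condition.

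Cell type markers also differed between the genotypes. Over all tested genes 9.62% were higher and 7.25% lower in the knockout without antigen, and 7.7% higher and 7.62% lower with antigen. The summed macrophage level was lower in the knockout in each condition (12637 to 13089 against 17928 to 18439 CPM without antigen), although of the 8 markers without antigen 3 were lower and 2 higher, and Lyz2 made up most of the difference (6083 against 11291 CPM). Of 6 tested plasma cell markers 5 were higher in the knockout without antigen, and the summed level of the 7 listed was 1085 to 1375 CPM in KO_none against 280 to 288 in WT_none, and that of 7 fibroblast markers was 40.4 to 48.6 CPM in KO_Ag against 121 to 183 in WT_Ag, where 5 of the 7 were lower in the knockout. Of 6 tested B cell markers 4 were lower without and 3 with antigen, and of 6 natural killer cell markers 2 were lower without and 1 was higher with antigen. Cell division markers were lower in the knockout without antigen (7 of 8) and higher with antigen (7 of 8). Scd1 and Fasn are also abundant in adipocytes. Of 5 adipocyte markers Fabp4 was higher in the knockout without antigen (0.67, 315 against 198 CPM, adjusted p = 0.0123) and with IL-18 (0.92, 82.6 against 43.5 CPM), and was not called with antigen alone (0.40, 66.8 against 50.2 CPM) or with IL-1β (0.59, 80.6 against 53.2 CPM). The summed adipocyte level was 307 to 322 CPM in KO_none and 189 to 203 in WT_none. Of the others Adipoq, Plin1, Cidec and Lep were at 0 in all libraries of KO_none and KO_Ag, and Plin1, Cidec and Lep in those of WT_none. The part of these cells in the genotype differences was not tested.

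Of the other pathway genes, the oxysterol and liver X receptor list held 6 of 12 genes higher in the knockout without antigen and none called lower. The lowest log2 fold change of that list was -1.38 and was not called. Over all tested genes 9.62% were higher and 7.25% lower without antigen, and 7.7% higher and 7.62% lower with it. Counts near these shares do not set a list apart. Smpdl3a, a target of the receptor, was higher by 0.49 ± 0.0459 (237 against 334 CPM), Nr1h3, which encodes the receptor LXRα, by 0.43 ± 0.0617 (36.2 against 49.0 CPM), Soat1, which esterifies cholesterol, by 0.27 ± 0.0312, and Abcg1 by 0.25 ± 0.0485. With antigen 2 of 12 were higher and 2 lower. In the list of fatty acid supply, elongation and activation, 1 of 18 was higher and 2 lower without antigen, and 1 higher and 5 lower with it. Among the latter were Acsl1 (-0.47, 412 against 297 CPM), Slc25a1, the citrate carrier of mitochondria (-0.30), Me1 (-0.58) and Acsl4 (-0.18). Without antigen 1 of 12 genes of SREBP processing was higher and 1 lower and 1 of 12 isoprenoid users was higher, and with antigen none of either list was called by edgeR.

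The third comparison asked whether the antigen response differed between genotypes. Of the 34 members 3 were called, all with a larger fall in the knockout, and 31 were not. Over all tested genes 4.6% had a lower and 3.79% a higher response in the knockout. The response of Hmgcs1 was lower by 0.37 ± 0.0854 (adjusted p = 0.00650), and it kept its call without any 1 of the 12 libraries. That of Mvd was lower by 0.36 ± 0.110 (adjusted p = 0.0419) and that of Srebf2 by 0.16 ± 0.0462 (adjusted p = 0.0335). Mvd lost its call in 7 of the 12 fits that left out 1 library, WT_none replicate 1 (0.110) or 2 (0.0953), WT_Ag replicate 2 (0.0745) or 3 (0.124), KO_none replicate 1 (0.0806) or 3 (0.107), or KO_Ag replicate 1 (0.208), and also with DESeq2 (0.0512) and with the compared libraries alone (0.130). Srebf2 lost it in 6, WT_none replicate 1 (0.0793) or 3 (0.0662), WT_Ag replicate 1 (0.0654) or 3 (0.0903), KO_none replicate 3 (0.0576) or KO_Ag replicate 1 (0.191), and also without the filter (0.147) and with the compared libraries alone (0.117). No fatty acid gene was called with the settings above. The genotype differences of Scd1 and Fads2 without antigen therefore cannot be said to have changed with it: the difference of responses was -0.50 ± 0.303 for Scd1 (adjusted p = 0.382) and -0.10 ± 0.203 for Fads2 (adjusted p = 0.852). Without KO_Ag replicate 1 the median difference was 0.044 for the sterol branch, against -0.092 with it. With any 1 library left out that median ranged from -0.13 to 0.044, and the members called from 1 to 7. Without KO_Ag replicate 2 Fdft1 (adjusted p = 0.0451), Sqle, Sc5d and Scd2 passed the threshold as well. Scd2 also passed with the replicate number as a block.

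The last comparisons asked what IL-1β or IL-18 added to antigen. No member was called in any of them by edgeR with the settings above or by DESeq2. With IL-1β, 0.0284% of all tested genes were higher and 0.0284% lower in WT, and 0.0426% higher and 0% lower in the knockout. With IL-18 the shares were 0% and 0% in WT and 0.0496% higher and 0.163% lower in the knockout. Unadjusted p-values were under 0.05 for 3 members with IL-1β and 3 with IL-18 in WT, and for 8 and 5 in the knockout. DESeq2 called 8 of all tested genes with IL-1β and 0 with IL-18 in WT, where 1319 and 580 genes had an unadjusted p under 0.05 in edgeR, and 73 and 232 in the knockout, where 1882 and 1748 had. The lowest adjusted p was that of Fads2 in the knockout, at 3.53, 6.81 and 5.78 CPM with antigen, 7.34, 8.26 and 7.88 CPM with IL-1β and 7.05, 7.72 and 8.74 CPM with IL-18. The IL-1β and IL-18 libraries were all above those with antigen alone (0.56 ± 0.167, adjusted p = 0.181, and 0.57 ± 0.166, adjusted p = 0.127), and both comparisons share the same antigen libraries. Fads2 passed the threshold in both without KO_Ag replicate 2, without the filter on low counts and with the replicate number as a block. In WT the members moved by at most 0.28 with IL-1β and 0.30 with IL-18 on the log2 scale, with a median SE of 0.0772 and 0.0783.

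The cytokine responses of the genotypes did not differ for any member by edgeR's test, nor for any tested gene (0% higher and 0% lower for IL-1β, and 0% and 0% for IL-18). Unadjusted p-values were under 0.05 for 1 member with IL-1β and 5 with IL-18, and for 576 and 919 of all tested genes. DESeq2 called no member in either and 0 and 1 of all genes. The SE of these differences had a median of 0.110 and 0.111 over the members.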

How the data were processed

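Poly(A) RNA of 24 co-cultures, extracted with Trizol per the labels' protocols, was sequenced, and the authors deposited 1 table of raw counts per Ensembl gene. Per the submitters' processing notes fastp and the build GRCm39 were used. The aligner, counter, annotation and strand setting are not given in the sources used here. The counts were checked to be whole and unscaled, and the 3 libraries of a group differed by more than counting noise (chi-square per degree of freedom from 1.46 to 16.7). Groups came from the sample titles. No library was left out.

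Genes were kept by filterByExpr (14099 of 55487, with 99.9% of counts), scaled with TMM factors and fitted with edgeR 4.0.16 (R 4.3.3, robust quasi-likelihood) in 1 model of the 24 libraries with 1 coefficient per group and 16 residual degrees of freedom. The common biological coefficient of variation was 5.01%. Benjamini-Hochberg adjustment was over all tested genes in each of 13 comparisons. Log2 CPM used a prior count of 2. The test was tried on simulated counts. Lengths came from GENCODE vM21 and symbols from matching identifiers. Intervals and SE cover these samples only.

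The members and lists were chosen with earlier results of these data known. Any member could be named, and of every other list up to 4 called genes with the lowest adjusted p. The alternatives were DESeq2 size factors, the DESeq2 1.42.0 Wald test, no filter, the replicate number as a block, fits restricted to the groups compared, and the omission of each library. A promoter stretch was to be printed only where the first motif was found, and 3 more were added after the matches were seen.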

Additional observations from a re-analysis of the deposited data

Results flagged for a closer look

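A difference between the antigen responses of knockout and WT co-cultures passed edgeR's test of the difference itself for 3 of the 34 genes. The response of Hmgcs1 was lower in the knockout by a log2 fold change of -0.37 (adjusted p = 0.00650), with all 3 knockout libraries above the WT ones without antigen and all 3 below them with antigen. Without antigen the lowest knockout library stood at 223.8 CPM and the highest WT library at 223.4 CPM. That genotype difference was not called, nor was it under any of 11 alternatives. The response of Mvd was lower by -0.36 (adjusted p = 0.0419), and that of Srebf2 by -0.16 (adjusted p = 0.0335). The Hmgcs1 call held under all 17 alternatives, whereas those of Mvd and Srebf2 were lost under 9 and 8 of them.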

How the results depend on the processing

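With antigen, 30 to 32 members were called in WT and 29 to 31 in the knockout when any 1 library was left out. No called gene changed direction under any alternative. Of 89 member calls in all comparisons, 12 were lost with the compared libraries alone, 7 with DESeq2, 6 without the filter, 2 with DESeq2 size factors and 19 with some library left out. Calls were also gained: 5 with the compared libraries alone, 1 with DESeq2, 11 without the filter and 1 with DESeq2 size factors. With a replicate block 22 were gained, and with some library left out 23. The calls lost under the most alternatives included the antigen responses of Scap in both genotypes, Mvd in WT and Insig2 in the knockout. With a replicate block the members called were 7 in place of 4 without antigen, 10 in place of 6 with IL-1β, 7 in place of 3 for the difference of antigen responses, 4 in place of 0 for IL-1β added in the knockout, and 1 in place of 0 for IL-18 added in the knockout and for the difference of IL-18 responses. It changed no other count by over 1.5 times and lost no call. Over all genes it gave 422 in place of 6 calls for IL-1β and 274 in place of 30 for IL-18 in the knockout, and 102 in place of 8 for IL-1β in WT. The labels tie no number to a shared batch, so the numbers were not taken as pairing. The deviations of same-numbered libraries correlated from 0.00157 to 0.229 over 30 pairs. In 22 of 30 cases the best match among 3 libraries had the same number, more often than an even draw among 3 would give. These cases share libraries, and whether libraries of the same number share a batch was not tested. Without the filter on low counts 1 member each was called for IL-1β and IL-18 in the knockout and for the difference of IL-18 responses, and all-gene calls were 79, 287 and 302 for IL-1β in WT and for IL-1β and IL-18 in the knockout. With the compared libraries alone the difference of antigen responses held 1 member.

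With each library left out in turn, the members called between genotypes ranged from 6 to 12 with antigen. With IL-1β they ranged from 2 to 4 and with IL-18 from 2 to 5. For IL-1β and IL-18 added in the knockout they ranged from 0 to 2 and 0 to 3. For the difference of antigen responses they ranged from 1 to 7. Branch medians ranged from -0.18 to 0.014 (sterol) and -0.41 to -0.23 (fatty acid) between genotypes with antigen, from -0.17 to -0.074 (fatty acid) without antigen and -0.19 to -0.028 (fatty acid) with IL-18, from -0.69 to -0.56 for the fatty acid response to antigen in WT, and from 0.020 to 0.18 for the sterol response to IL-18 in the knockout. For differences of responses they ranged from -0.13 to 0.044 (sterol) and -0.28 to -0.16 (fatty acid) for antigen, from -0.013 to 0.14 (sterol) for IL-1β, and from 0.047 to 0.20 (sterol) and 0.036 to 0.22 (fatty acid) for IL-18. The cause of these shifts was not tested. Fdps had the fewest counts.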
